A study of Mus musculus with 6 samples.

Results

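The 10 genes described here encode CC chemokine ligands, the secreted proteins Ccl2, Ccl3, Ccl4, Ccl5, Ccl6, Ccl7, Ccl9, Ccl12, Ccl22 and Ccl24. They were taken by symbol from a given list, and all 10 were found among the 36528 gene identifiers of the series. Polyadenylated RNA of cultured mouse microglia, the macrophages that reside in the brain, was sequenced in 3 groups of 2 libraries each. The groups were untreated wild type (WT), untreated Cop1 knockout (Cop1 KO, whose label also names loxP) and LPS-treated wild type (lipopolysaccharide, which comes from the bacterial outer membrane and is sensed by Toll-like receptor 4). COP1 is a ubiquitin ligase that marks transcription factors for degradation. The labels give no dose or duration of LPS, no strain or age, and do not say what deleted the floxed gene; no group combined the knockout with LPS.

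CC chemokines bind G-protein-coupled CC chemokine receptors on leukocytes and draw those cells along a concentration gradient. Activated macrophages and microglia are a known source of them, and several of their genes are textbook targets of NF-kB and of interferon-driven transcription factors. In the brain they are best known for the recruitment of monocytes and lymphocytes during inflammation. Background knowledge of receptors and function groups the 10 proteins into monocyte attractants that signal through CCR2 (Ccl2, Ccl7, Ccl12), inflammatory macrophage proteins (Ccl3, Ccl4, Ccl5), the rodent ligands of CCR1 (Ccl6, Ccl9), the CCR4 ligand Ccl22 and the CCR3 ligand Ccl24.

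Library totals lay between 20568144 and 22553708 gene counts. All 10 microglia markers on a fixed list were detected in every group, at a summed level of 6062 to 6130 CPM (counts scaled to a common, normalised library size) in WT, 9693 to 9768 in Cop1 KO and 3482 to 3610 with LPS. Markers of other brain cells were also detected and were not even between groups. The 10 astrocyte markers summed to 777 to 779 CPM in WT, 50.6 to 54.8 in Cop1 KO and 871 to 878 with LPS, and 9 of the 10 were lower in Cop1 KO than in WT (median log2 fold change −3.78). The 10 neuron markers summed to 62.7 to 63.6 CPM, 3.69 to 4.81 and 58.9 to 60.2 in the same order. Not all lists fell in Cop1 KO against WT. Of 7 fibroblast markers tested, 5 were higher and 1 lower (median 1.26). Of 5 endothelial markers tested, 3 were higher and 1 lower (median 0.87). Of 8 oligodendrocyte lineage markers tested, 2 were higher and 6 lower (median −2.27). Over all genes, 28.1% were higher and 30.3% lower. Cop1 itself, the targeted gene, was at 12.7 and 11.5 CPM in WT, 8.06 and 9.23 in Cop1 KO and 23.4 and 27.2 with LPS, so the knockout libraries kept much of its RNA (in Cop1 KO against WT, log2 fold change −0.49, SE 0.11, edgeR adjusted p = 0.00016). Which exons the deletion removes is not given, so the gene count checks the label only in part. The difference did not pass with limma on the authors' scale (adjusted p = 0.057 to 0.15).

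Of the 10 genes, 8 lie on mouse chromosome 11 in a pair of clusters (coordinates from RefSeq on GRCm38, the build of the authors' alignment). The first cluster holds Ccl2 (82035577 to 82037452), Ccl7 (82045712 to 82047525) and Ccl12 (82101845 to 82103399), all on the plus strand, with Ccl11, Ccl8 and Ccl1 beside them. The second holds Ccl5 (83525778 to 83530518), Ccl9 (83572917 to 83578636), Ccl6 (83587886 to 83593087) and Ccl3 (83647843 to 83649378) on the minus strand and Ccl4 (83648624 to 83664683) on the plus strand. Ccl22 lies on chromosome 8 (94745684 to 94751388, plus strand), near Ccl17, and Ccl24 on chromosome 5 (135569935 to 135573123, minus strand). The RefSeq interval of Ccl4 runs into Ccl3, but in the GENCODE annotation no exonic base of any of the 10 overlaps another gene. Of all stretches of 50 bases, the read length, 9 of the genes share none with another gene, and Ccl9 shares 59 of 2996, none of them with the other 9.

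The promoter table of RefSeq (GRCm38.p6) held 5 of the 10 genes. The 250 bases before the start of 4 of them are shown because their RNA went separate ways in the comparisons that follow. Ccl12 rose most of the 4 with LPS, Ccl9 rose less, Ccl6 did not rise, and Ccl22 fell in Cop1 KO. The windows are chr11:82101595-82101844 on the plus strand for Ccl12, chr8:94745434-94745683 on the plus strand for Ccl22, chr11:83578637-83578886 on the minus strand for Ccl9 and chr11:83593088-83593337 on the minus strand for Ccl6. Capitals mark matches to the motifs searched.
Ccl12: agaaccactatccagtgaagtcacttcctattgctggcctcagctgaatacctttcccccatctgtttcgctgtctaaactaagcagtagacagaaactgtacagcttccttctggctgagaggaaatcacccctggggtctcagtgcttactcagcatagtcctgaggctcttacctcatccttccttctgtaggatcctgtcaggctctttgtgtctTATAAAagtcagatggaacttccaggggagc
Ccl22: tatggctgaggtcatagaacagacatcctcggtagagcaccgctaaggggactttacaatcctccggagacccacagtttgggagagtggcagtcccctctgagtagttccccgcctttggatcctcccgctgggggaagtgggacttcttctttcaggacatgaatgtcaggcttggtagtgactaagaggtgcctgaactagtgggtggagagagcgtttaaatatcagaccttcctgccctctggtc
Ccl9: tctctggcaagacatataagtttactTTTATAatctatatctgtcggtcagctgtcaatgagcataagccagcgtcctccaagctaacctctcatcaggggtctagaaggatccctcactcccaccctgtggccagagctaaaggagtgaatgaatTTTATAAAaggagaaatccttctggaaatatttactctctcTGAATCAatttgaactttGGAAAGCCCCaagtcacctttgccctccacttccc
Ccl6: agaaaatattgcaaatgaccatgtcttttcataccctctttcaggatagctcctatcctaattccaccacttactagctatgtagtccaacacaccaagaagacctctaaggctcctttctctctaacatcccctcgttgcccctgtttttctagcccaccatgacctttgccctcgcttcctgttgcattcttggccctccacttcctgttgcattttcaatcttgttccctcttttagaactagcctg

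The letters of 7 motifs were searched on both strands of these windows. They were the kappa-B motif of NF-kB (present in 7.25% of all 32851 windows of the same length), the interferon response element ISRE (2.98%), the STAT motif TTCNNNGAA (7.02%), the AP-1 motif TGANTCA (6.75%), the C/EBP motif TTGCNNAA (9.56%), the PU.1 motif GAGGAAG (10.6%) and the TATA motif TATAAA (12.4%). The Ccl9 window held a kappa-B match from base −35 to −26 before the start, on the strand opposite to the gene, an AP-1 match from −53 to −47, and 3 TATA matches, of which those at −94 to −89 and −92 to −87 overlap each other. The Ccl12 window held a TATA match from −31 to −26. No match lay in the windows of Ccl6, Ccl22 and Ccl3. These matches describe the letters of the windows only.

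In WT libraries treated with LPS, RNA of 9 of the 10 ligands rose, that of 7 of them by at least 10-fold (Ccl2, Ccl3, Ccl4, Ccl5, Ccl7, Ccl12 and Ccl22), and the exception was Ccl6. The 9, and the median given below, include Ccl24, which passed the filter on low counts through its LPS libraries alone. In Cop1 KO libraries the differences went both ways. RNA of Ccl3, Ccl4, Ccl5, Ccl6 and Ccl12 was higher than in WT, RNA of Ccl2, Ccl7 and Ccl22 was lower, and Ccl9 and Ccl24 did not pass the test. Tests were edgeR quasi-likelihood tests over 15585 genes with Benjamini-Hochberg adjustment, called below 0.05. With LPS, 73.7% of all genes tested were called, 30.2% of them higher and 43.4% lower as shares of all genes, and 4% rose by at least 10-fold. The median log2 fold change of the 10 ligands was 6.30, beside −0.18 over all genes. In Cop1 KO against WT, 58.4% of all genes were called, 28.1% higher and 30.3% lower, so a count of 8 of 10 is not far above the background. The median of the 10 ligands was 0.22, beside −0.01 over all genes. The LPS and Cop1 KO comparisons share the same WT libraries, and their values are given side by side without a measure of likeness. The labels do not say whether the libraries of a group are separate cultures or animals, and the p-values speak only of the spread between the sequenced libraries, which may be technical.

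**Figure D1:**
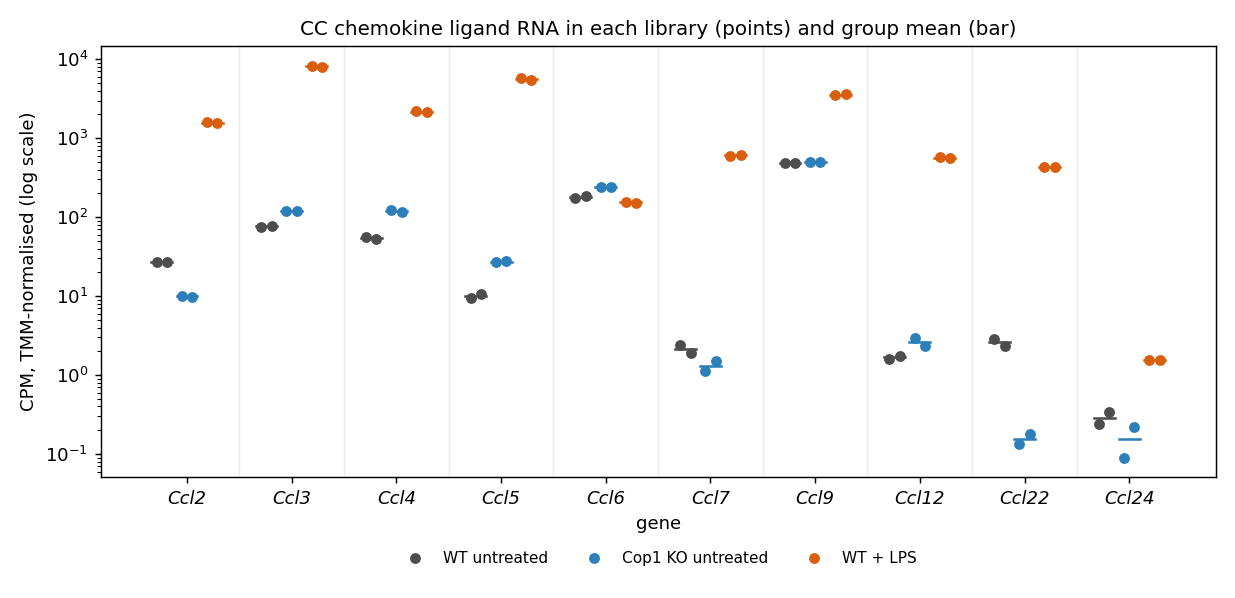
RNA level of the 10 CC ligand genes in each library, as TMM-normalised CPM on a log axis; points are libraries, bars are group means, and colours are WT untreated, Cop1 KO untreated and WT with LPS. The LPS points lie above the other groups for every gene but Ccl6, and the Cop1 KO points of Ccl22 lie at 0.135 and 0.177 CPM.

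Ccl2, the best-known monocyte attractant, was at 26.8 and 27.2 CPM in WT, 10.2 and 9.67 in Cop1 KO and 1583 and 1545 with LPS. The Cop1 KO libraries were the lowest and the LPS libraries the highest. Ccl2 was 2.72-fold lower in Cop1 KO than in WT (log2 fold change −1.44, SE 0.07, edgeR adjusted p = 3.8e-25) and rose 57.9-fold in the LPS libraries (5.86, SE 0.04, adjusted p = 8.1e-65; n = 2 libraries per group here and throughout). Ccl7, which shares the CCR2 receptor, was at 2.38 and 1.90 CPM in WT, 1.13 and 1.5 in Cop1 KO and 601 and 612 with LPS. The values in untreated libraries rest on 25 to 60 counts each, and only the LPS libraries stand well apart. Ccl7 rose 283-fold with LPS (8.15, SE 0.13, adjusted p = 9.7e-62) and lower in Cop1 KO (−0.70, SE 0.22, adjusted p = 0.0047). The call in Cop1 KO was lost without WT library 1 (adjusted p = 0.099) and without Cop1 KO library 1 (adjusted p = 0.11), and the adjusted p ran from 0.00028 to 0.11 over all alternatives.

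Ccl12, a mouse monocyte attractant of the first cluster, was at 1.59 and 1.75 CPM in WT, 2.93 and 2.34 in Cop1 KO and 571 and 561 with LPS. It stood higher in Cop1 KO than in WT, while Ccl2 and Ccl7 of the same cluster stood lower. The log2 fold change in Cop1 KO was 0.65 (SE 0.19, edgeR adjusted p = 0.0028), from 40 to 65 counts per untreated library. This call was lost without Cop1 KO library 1 (adjusted p = 0.10, with 0.00062 to 0.10 over all alternatives). With LPS, Ccl12 rose 337-fold (8.40, SE 0.14, adjusted p = 1.1e-61). The ratio of Ccl2 to Ccl12 on the authors' length-normalised scale (nRPKM, reads per kilobase scaled to depth) does not depend on the scaling of libraries. It was 11.2 and 10.3 in WT, 2.31 and 2.75 in Cop1 KO and 1.84 and 1.83 with LPS. Ccl2 thus outweighed Ccl12 most in WT. The astrocyte markers given above differ between WT and Cop1 KO as well. Of the 10 microglia markers, 8 were higher in Cop1 KO and 0 lower (median log2 fold change 0.53), beside 28.1% of all genes higher. With LPS, 3 were higher and 6 lower (median −0.70), beside 30.2% and 43.4% of all genes. A changed share of a cell type and changed RNA per cell cannot be told apart in these bulk samples. The part of the cell mix was not tested, neither in the lower Ccl2, Ccl7 and Ccl22 of Cop1 KO nor in the higher Ccl3, Ccl4, Ccl5, Ccl6 and Ccl12. It was not tested in the changes with LPS either.

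Ccl3, a ligand of CCR1 made by activated macrophages, was at 75.4 and 78.3 CPM in WT, 119 and 119 in Cop1 KO and 8330 and 8095 with LPS. Ccl4, a related inflammatory attractant, was at 55.3 and 52.6 CPM in WT, 123 and 115 in Cop1 KO and 2203 and 2136 with LPS. Ccl5, which binds CCR1 and CCR3 among others and is a common target of interferon signalling, was at 9.56 and 10.6 CPM in WT, 26.7 and 27.5 in Cop1 KO and 5857 and 5510 with LPS. All 3 genes showed the same order, WT lowest, Cop1 KO in between and LPS far above.

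In Cop1 KO against WT, the log2 fold change was 0.63 for Ccl3 (SE 0.03, edgeR adjusted p = 6.6e-23), 1.14 for Ccl4 (SE 0.04, adjusted p = 9.4e-31) and 1.42 for Ccl5 (SE 0.07, adjusted p = 9.7e-26), which are 1.55-fold, 2.20-fold and 2.68-fold increases. With LPS the increases were 107-fold for Ccl3 (6.74, SE 0.03, adjusted p = 5.4e-71), 40.2-fold for Ccl4 (5.33, SE 0.04, adjusted p = 3.3e-64) and 562-fold for Ccl5 (9.13, SE 0.06, adjusted p = 4e-71). Ccl3 and Ccl4 are neighbours on opposite strands, and the ratio of their nRPKM was 1.14 and 1.24 in WT, 0.81 and 0.864 in Cop1 KO and 3.16 and 3.17 with LPS. The weight of the pair thus lay towards Ccl4 in Cop1 KO and towards Ccl3 with LPS. The library preparation keeps no strand, and the part of reads shared between the pair in these ratios was not tested.

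**Figure D2:**
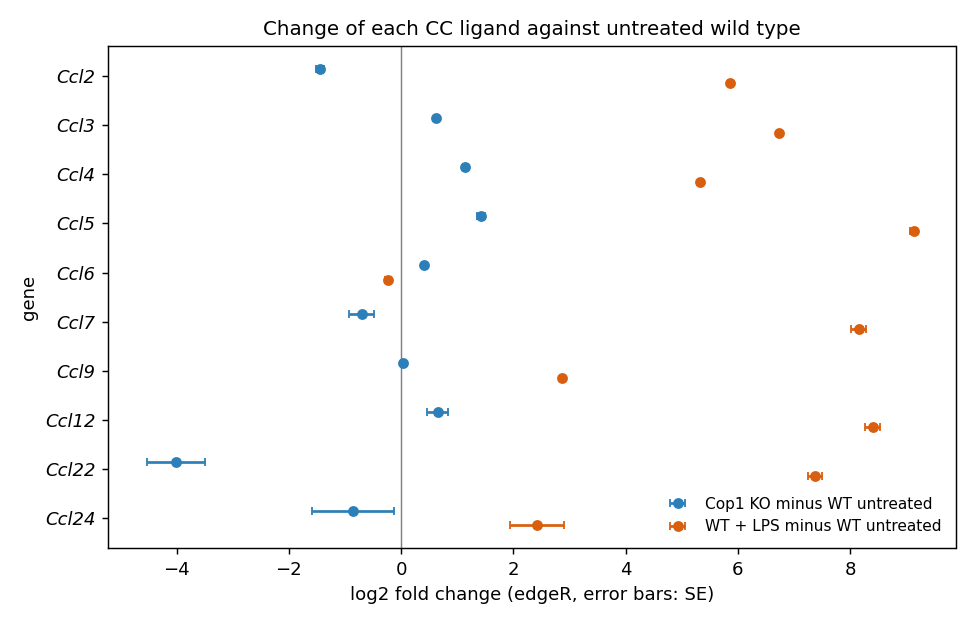
Log2 fold change of the 10 CC ligand genes in Cop1 KO against WT and in LPS against WT, from the edgeR fit, with error bars of 1 SE. Values in Cop1 KO lie between −4.01 and 1.42 and go both ways, while those with LPS reach 9.13 and fall below 0 for Ccl6 only.

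Ccl6 and Ccl9 are rodent chemokines of the CCR1 group that macrophages make without stimulation, and they lie side by side in the second cluster. Ccl6 was at 177 and 187 CPM in WT, 240.2 and 242.9 in Cop1 KO and 156 and 152 with LPS. The LPS libraries were the lowest and the Cop1 KO libraries the highest. Ccl6 rose 1.33-fold in Cop1 KO (log2 fold change 0.41, SE 0.04, edgeR adjusted p = 1.7e-14), and its log2 fold change with LPS was −0.24 (SE 0.04, adjusted p = 1.7e-07). The latter value is −0.06 relative to the median of all genes, and it was not called with DESeq2 (−0.10, adjusted p = 0.079) or with limma on nRPKM (−0.08, adjusted p = 0.082 to 0.13), while with library size only it was −0.80. Ccl9 was at 479 and 491 CPM in WT, 496 and 504 in Cop1 KO and 3512 and 3580 with LPS, so the untreated groups lie close together. It rose 7.31-fold with LPS (2.87, SE 0.03, adjusted p = 2.5e-57). In Cop1 KO the log2 fold change of Ccl9 was 0.04 (SE 0.03, adjusted p = 0.19), and its sign depended on the scaling, from −0.15 with library size only to 0.17 on the authors' scale. The nRPKM ratio of Ccl9 to Ccl6, which no scaling changes, was 1.29 and 1.25 in WT, 0.987 and 0.99 in Cop1 KO and 10.8 and 11.2 with LPS. The neighbours were therefore closer to each other in both untreated groups than with LPS.

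Ccl22, a ligand of CCR4 made by dendritic cells and macrophages, was at 2.90 and 2.31 CPM in WT, 0.135 and 0.177 in Cop1 KO and 431 and 429 with LPS. The Cop1 KO values rest on 3 and 4 counts, against 73 and 62 in WT. It was 16.1-fold lower in Cop1 KO than in WT (log2 fold change −4.01, SE 0.52, edgeR adjusted p = 3.5e-15), a value that was −2.71 with limma on log2(nRPKM + 0.1) and −0.89 on log2(nRPKM + 1). Ccl22 rose 165-fold with LPS (7.37, SE 0.12, adjusted p = 1.4e-59). A fixed list of 8 dendritic cell markers summed to 323 to 325 CPM in WT, 269 to 271 in Cop1 KO and 299 to 300.4 with LPS, with Flt3 and Cd209a at 0 in both untreated groups and Siglech at 0 in Cop1 KO and with LPS. Most of that sum was Itgax, at means of 318 CPM in WT, 266 in Cop1 KO and 267 with LPS. Other members of the list moved more: Xcr1 was at a mean of 0.192 CPM in WT, 0.623 in Cop1 KO and 21.5 with LPS, and Clec9a at 0.379, 0.510 and 6.86. Xcr1 was called higher in Cop1 KO than in WT (log2 fold change 1.67, SE 0.56, edgeR adjusted p = 0.0044), from low levels. Of 5 list members tested, 1 was higher and 3 lower in Cop1 KO, beside 28.1% and 30.3% of all genes. Zbtb46 was at 2.72 CPM in WT, 0.937 in Cop1 KO (log2 fold change −1.53, SE 0.29, edgeR adjusted p = 3.1e-06) and 2.35 with LPS, and Batf3 at 2.77, 1.87 and 1.99. The part of such cells in the Ccl22 values was not tested.

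Ccl24, an eosinophil attractant that signals through CCR3, was near the detection limit, with 6 and 9 counts in WT, 2 and 5 in Cop1 KO and 28 and 26 with LPS. These are levels of 0.238 and 0.336 CPM, 0.0900 and 0.221, and 1.57 and 1.57. The gene passed the filter on low counts through its LPS libraries alone, so its rise of 5.35-fold with LPS (log2 fold change 2.42, SE 0.48, edgeR adjusted p = 2.5e-06) comes with that choice. In Cop1 KO the value was −0.86 (SE 0.73, adjusted p = 0.29), and a difference was not detectable at this depth.

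Set directly against the LPS libraries, the Cop1 KO libraries held less RNA of 9 of the 10 ligands and more of Ccl6. The 9 again include Ccl24, which passed the filter through its LPS libraries alone. Of all genes tested 79.6% were called in this comparison, 39.9% higher and 39.6% lower. The log2 fold changes of the 9 ran from −2.83 (Ccl9, SE 0.03, edgeR adjusted p = 7.6e-57) to −11.38 (Ccl22, SE 0.51, adjusted p = 1.3e-59), and Ccl6 was 1.57-fold higher in Cop1 KO (0.65, SE 0.04, adjusted p = 6.8e-22). The groups differ in genotype and in treatment at once, so the comparison gives a distance between states and no effect of either.

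The make-up of the ligand RNA differed between the 3 groups. Per length, the summed nRPKM of the 10 genes was 352 and 361 in WT, 545 and 544 in Cop1 KO and 22856 and 22082 with LPS, which is 1.53-fold more in Cop1 KO and 63.0-fold more with LPS. As a share of all gene counts, the 10 genes took 0.0989% and 0.102% in WT, 0.106% and 0.107% in Cop1 KO and 1.87% and 1.82% with LPS. The size of the difference between Cop1 KO and WT in the total thus depends on the scale. The nRPKM values are divided by gene length and carry the authors' size factor, for which no method is stated. Ccl9 and Ccl6 made up 30.6% ± 0.0357 and 24.1% ± 0.515 of the summed nRPKM in WT (SD, n = 2). With LPS their shares were 3.98% ± 0.157 and 0.362% ± 0.00378, and Ccl5 (36.0% ± 0.624) and Ccl3 (35.1% ± 0.197) led. In Cop1 KO, Ccl4 led with 24.5% ± 0.917, Ccl5 was at 6.92% ± 0.189 against 3.60% ± 0.207 in WT, and Ccl2 at 1.67% ± 0.0520 against 6.36% ± 0.0359.

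**Figure D3:**
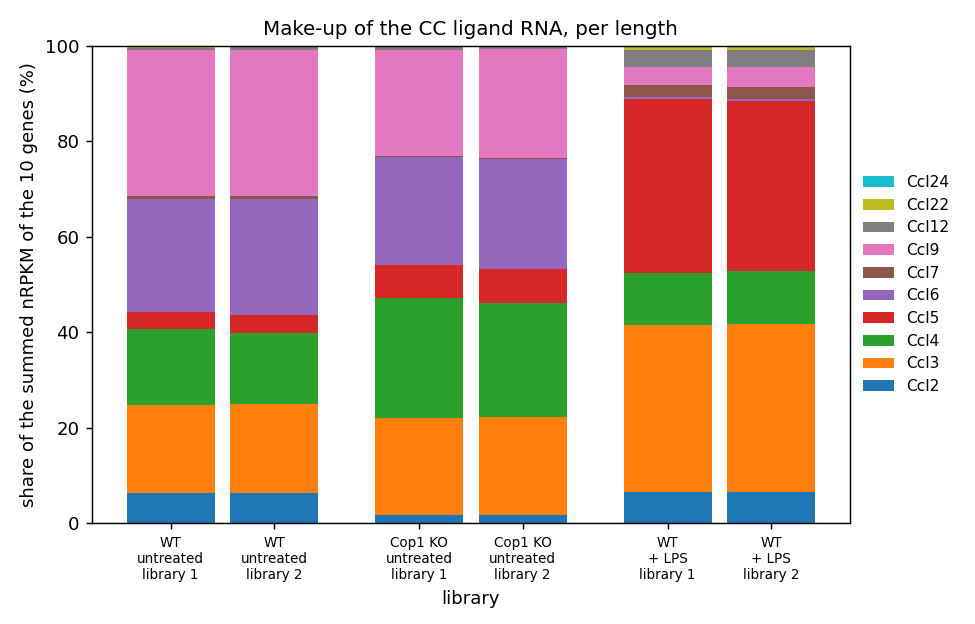
Share of each of the 10 genes in their summed nRPKM (percent, vertical axis) in each of the 6 libraries. Ccl9 and Ccl6 hold the largest parts of the WT bars, the Cop1 KO bars hold more Ccl4 and less Ccl2, and the LPS bars are mostly Ccl5 and Ccl3.

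By mean nRPKM, the order in WT was Ccl9 (109), Ccl6 (85.8), Ccl3 (65.8), Ccl4 (55.3), Ccl2 (22.7), Ccl5 (12.8), Ccl12 (2.11), Ccl7 (1.81), Ccl22 (0.973) and Ccl24 (0.142), and only Ccl12 and Ccl7 overlapped between neighbours. The order in Cop1 KO was Ccl4 (133), Ccl6 (125), Ccl9 (123), Ccl3 (112), Ccl5 (37.7), Ccl2 (9.12), Ccl12 (3.64), Ccl7 (1.21), Ccl24 (0.0841) and Ccl22 (0.0637), with overlap between Ccl6 and Ccl9 and between Ccl24 and Ccl22. With LPS it was Ccl5 (8097), Ccl3 (7879), Ccl4 (2492), Ccl2 (1471), Ccl9 (893), Ccl12 (800.0), Ccl7 (574), Ccl22 (180.0), Ccl6 (81.4) and Ccl24 (0.868), with overlap between Ccl5 and Ccl3. Among all 36528 identifiers ranked by nRPKM, Ccl5 was first and Ccl3 second in both LPS libraries, and Ccl4 was at rank 12 in both. In WT, Ccl5 was at ranks 3105 and 2800 and Ccl3 at 444 and 417, and in Cop1 KO they were at 1140 and 1100 and at 305 and 302. Ccl2 took ranks 1605 and 1573 in WT, 4420 and 4573 in Cop1 KO and 28 and 30 with LPS. The nRPKM ratio of Ccl5 to Ccl2 was 0.541 and 0.591 in WT, 3.97 and 4.31 in Cop1 KO and 5.61 and 5.40 with LPS, so Ccl2 was the more abundant of the pair in WT libraries and Ccl5 in all others.

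Of 11 further CC ligand genes on the list, 3 passed the filter. Ccl17 did so through its LPS libraries alone, so no count of risen genes is given for the 3. Ccl8, the monocyte attractant beside Ccl12, was at 0.476 and 0.336 CPM in WT, 1.13 and 0.750 in Cop1 KO and 50.4 and 44.2 with LPS, a 116-fold rise with LPS (log2 fold change 6.85, SE 0.33, edgeR adjusted p = 1.3e-39). In Cop1 KO the value was 1.20 (SE 0.40, adjusted p = 0.0065), a call lost without WT library 2 (0.087) or Cop1 KO library 1 (0.12). Ccl17, the other CCR4 ligand, had 0 counts in WT, 1 and 0 in Cop1 KO and 33 and 27 with LPS, at least 30.2-fold higher than a floor of 3 counts over the WT group. Ccl25, a ligand of CCR9, rose with LPS (0.93, SE 0.26, adjusted p = 0.0013), but not with library size only (adjusted p = 0.18) or without LPS library 2. In Cop1 KO its value was 0.59 (SE 0.26, adjusted p = 0.046), with an adjusted p of up to 0.18 over the alternatives. Among genes that did not pass the filter, Ccl20 had 5 and 8 counts with LPS and Ccl11 had 7 and 2, with 0 in all other libraries.

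Of 15 CC chemokine receptor genes, 9 passed the filter. In Cop1 KO 2 rose (Ccrl2, Ccr10) and 2 fell (Ccr1, Ccr2), with a median log2 fold change of −0.02, and with LPS 3 rose (Ccrl2, Ccr9 and Ccr7, which passed the filter through its LPS libraries alone) and 2 fell (Ccr2, Ackr4), with a median of −0.06, beside 58.4% and 73.7% of all genes called. The rise of Ccr10 in Cop1 KO (1.20, SE 0.49, edgeR adjusted p = 0.025) rests on 8 to 20 counts per untreated library, and its adjusted p ran from 0.0056 to 0.16 over the alternatives. Ccr10 reached the limit of the filter in 2 Cop1 KO libraries, 1 WT library and 0 LPS libraries. It was thus kept through the group where it is high. The lower Ackr4 with LPS (−1.01, SE 0.46, adjusted p = 0.035), from 8 to 36 counts per library, had an adjusted p of up to 0.41 over the alternatives, with that value reached without WT library 2. Ccr9 overlaps other genes over 21.5% of its exonic bases, and unstranded counts do not separate them. Ccr1, the receptor of Ccl3, Ccl6 and Ccl9 among others, was at 62.5 and 62.4 CPM in WT, 29.1 and 30.4 in Cop1 KO and 60.2 and 59.3 with LPS. It fell in Cop1 KO (−1.07, SE 0.06, adjusted p = 3.5e-22).

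Ccr2, the monocyte receptor of Ccl2, Ccl7 and Ccl12, stayed near the low end, at 2.22 and 2.16 CPM in WT, 1.13 and 1.19 in Cop1 KO and 0.727 and 1.57 with LPS. Its lower values in Cop1 KO (log2 fold change −0.92, SE 0.29, edgeR adjusted p = 0.0051) and with LPS (−0.95, SE 0.32, adjusted p = 0.0051) were not called with DESeq2 or limma, and the latter was also lost without LPS library 1. Ccrl2, an atypical receptor that binds the attractant chemerin without signalling, was at 10.0015 and 9.69 CPM in WT, 19.0 and 17.7 in Cop1 KO and 556 and 544 with LPS. It rose 55.9-fold with LPS (5.8, SE 0.07, adjusted p = 7.7e-60) and also rose in Cop1 KO (0.90, SE 0.08, adjusted p = 1.5e-14). Ccr7, the lymph-node homing receptor, had 0 counts in WT and Cop1 KO and 127 and 140 with LPS, at least 134-fold higher than the floor of 3 counts over the WT group.

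**Figure D4:**
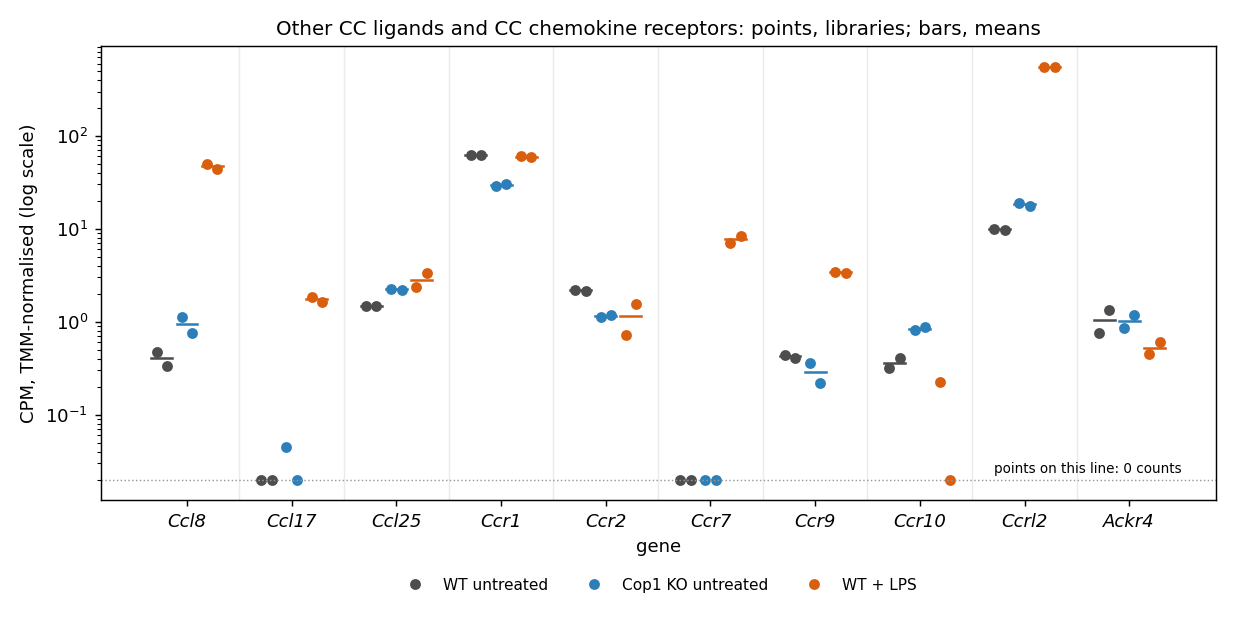
RNA level of the other CC ligand genes and of the CC chemokine receptor genes named in the text, as TMM-normalised CPM on a log axis; points are libraries, bars are group means where no library has 0 counts, and points on the dotted line have 0 counts. Ccl8 and Ccrl2 are highest in the LPS libraries, and Ccr1 is lower in Cop1 KO.

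The lists of NF-kB genes with their feedback genes and of STAT and IRF factors were counted beside the ligands. Of 16 NF-kB genes, all rose with LPS (median log2 fold change 3.56), and in Cop1 KO 13 rose and 1 fell (median 0.69). Over all genes, 30.2% were called higher with LPS (median −0.18), and 28.1% higher and 30.3% lower in Cop1 KO (median −0.01). Nfkbia, the inhibitor that NF-kB itself induces, had a log2 fold change of 4.42 with LPS and 0.89 in Cop1 KO, and Nfkbiz, an inducible nuclear cofactor, had 5.28 and 1.22. The one lower in Cop1 KO was Tnfaip3, a deubiquitinase that limits the pathway (−0.22, SE 0.04, edgeR adjusted p = 1.2e-05), and it was not called with limma on nRPKM. Of 14 STAT and IRF genes tested, 11 rose and 1 fell with LPS (median 1.84), and 11 rose and 2 fell in Cop1 KO (median 0.60), beside the same shares of all genes and 43.4% of all genes lower with LPS. Irf7, a factor of the type I interferon response, had 5.8 and 2.4, Stat2 had 3.74 and 1.79, and Irf1 had 4.13 and 1.09, with LPS and in Cop1 KO.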

How the data were processed

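RNA of 6 libraries was read single-end from unstranded TruSeq libraries, per the labels' protocols. Reads were aligned with GSNAP to GRCm38, per the submitters' processing notes; for its version and the gene annotation, none is given in the sources used here. The authors counted uniquely aligned reads per gene model (count column, per the file headers). They also deposited RPKM (nRPKM), multiplied by a size factor per sample according to the file headers, with no method stated for the factor. Names came from RefSeq for 31049 identifiers and GENCODE for 78, and 5401 had none (1.072% to 1.304% of counts).

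Counts were tested in R 4.3.3 with edgeR 4.0.16 (filterByExpr by group, TMM factors 0.806 to 1.192, 1 quasi-likelihood fit of all 6 libraries with 3 residual degrees of freedom, common dispersion 0.00073), Benjamini-Hochberg adjusted over 15585 genes. Levels of a gene across libraries are CPM; levels between genes are nRPKM. Libraries of a group differed beyond sampling noise (chi-square divided by its degrees of freedom, 1.598 to 2.568). Alternatives were DESeq2 1.42.0, limma 3.58.1 on log2(nRPKM + 1 or 0.1), other scalings, no filter, only the groups compared, and each library left out. Bounds against 0 counts use a floor of 3 counts over the group and cover counting error only. Tables were joined with Python 3.11.15.

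Named genes are the 10 ligands in every comparison, up to 4 genes with the smallest p per list and comparison, any CC receptor kept by the filter, and Cop1; Ccl11, Ccl20 and the single dendritic cell markers with values were named after their values were seen. The members and lists were chosen with earlier results of these data known. Some genes of the lists are not reported here and stay in all tests and counts.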

Additional observations from a re-analysis of the deposited data

How the results depend on the processing

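The count of the 10 ligands called was 6 to 9 in Cop1 KO against WT, 9 to 10 with LPS and 10 in Cop1 KO against LPS over all alternatives. Leaving out 1 library gave 6 to 8 in the first. The counts with and against LPS include Ccl24, which passed the filter through its LPS libraries alone. Scaling moved the all-gene median (log2) from −0.01 in Cop1 KO to −0.20 with library size only and 0.08 with median-of-ratios factors, and from −0.18 with LPS to −0.74 and −0.04. Ccl9 in Cop1 KO reversed to −0.15 with library size only (edgeR adjusted p = 6.7e-06), and was called higher at 0.13 with median-of-ratios factors and DESeq2 and at 0.17 with limma. Over all alternatives Ccl22 in Cop1 KO ran from −4.21 to −0.89 and Ccl24 with LPS from 0.71 to 2.69, with −0.89 and 0.71 both from limma with a pseudocount of 1, which understates changes of low genes. Ccl7 in Cop1 KO was also not called with limma without a low-value filter (adjusted p = 0.058). Of the values of the 10 ligands under alternatives, 406 kept their direction and side of the threshold, 8 lost and 5 gained a call, and 1 reversed. No paired analysis was possible because the labels carry no replicate numbers. Ccl24, Ccl22, Ccl7 and Ccl12 have few counts in untreated libraries, which limits their precision. The cause of the other shifts was not tested.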
